A study of Mus musculus with 9 samples.

Results

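The baseline transcriptome of N2A cells was described from the 3 libraries of cells that received the scramble control siRNA, out of 9 libraries in the study. N2A is an established mouse neuroblastoma line. All cells came from it, so the 3 replicates are separate cultures of a single line and not separate animals, and the spread between them is the spread of culture, transfection, RNA preparation and sequencing. The scramble cells carry the labels WT and Untreated, but like the siEXOSC3 and siDDX1 cells they were transfected with an siRNA with a Lipofectamine reagent in medium without antibiotics. They are therefore a transfected control, and cells without any siRNA were not analysed here. Ribosomal RNA was removed from total RNA and nondirectional libraries were read as pairs of 150 bases. Levels come from the scramble columns of the table that also holds the 3 siEXOSC3 libraries, and knockdown libraries are used only for the spread within groups and the hypoxia genes, where they are named. It lists 24318 genes in FPKM, a count of sequenced fragments scaled for the length of the transcript and the size of the library.

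FPKM is scaled by length, so levels of different genes can be set side by side. A single group has no contrast, so no test was run and every value below is a description. Levels are means of the 3 libraries, with the SD where it is given and with each library's value for the genes that matter most. A gene was counted as expressed at a mean of at least 1 FPKM. An exact 0 can be an estimate that failed, as for Tmsb4x, a beta-thymosin gene used by nearly every cell, which is listed at 0 in all 3 libraries. Such genes are described as listed at 0 and not as silent. Because the libraries do not keep strand, reads of overlapping genes on opposite strands cannot be told apart.

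Neuroblastoma arises from the sympathoadrenal lineage of the neural crest, the embryonic cells that also give sympathetic neurons and adrenal chromaffin cells. That lineage is held by a small circuit of transcription factors, among them Phox2a, Hand2 and the Gata factors. Its mature cells make and store catecholamines. Cells grown in culture also carry the transcripts of proliferation and protein synthesis.

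Of the 24318 genes, 11106 (45.7%) were expressed and 8026 (33.0%) were listed at 0 in all 3 libraries. Among 20474 protein-coding genes 10661 (52.1%) were expressed, against 329 of 2062 long noncoding RNA genes (15.96%). Levels were spread over several orders of magnitude. A mean of at least 10 FPKM was reached by 6808 genes, 779 genes lay from 100 to under 1000 FPKM, and 94 stood at 1000 FPKM or more. The median expressed gene was at 14.4 FPKM. The 1157 rows that name a microRNA gene were all listed at 0, so microRNAs were not measured by these libraries.

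**Figure D1:**
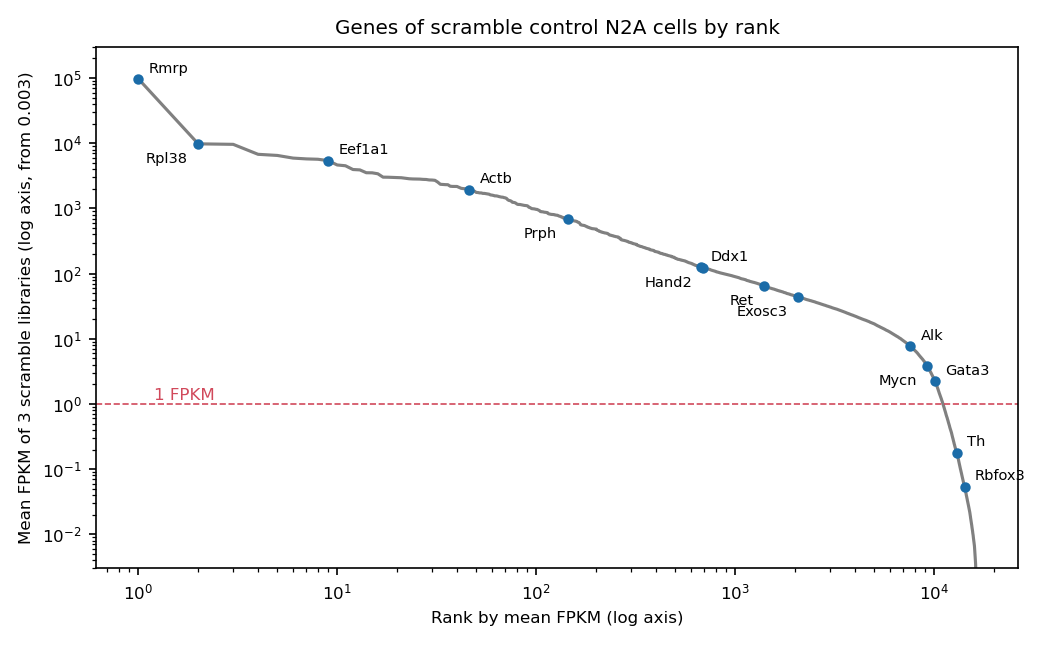
Mean FPKM of the 3 scramble libraries (vertical, log axis drawn from 0.003) against rank (horizontal, log axis). The grey line is every gene above 0, the points are named genes and the dashed line is 1 FPKM; Rmrp stands at 97702 FPKM, Hand2 and Ddx1 lie close together above 100 FPKM, and Th lies below 1 FPKM.

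A single small RNA headed the list. Rmrp, the RNA of the RNase MRP particle that cuts precursor ribosomal RNA, was at 96629.7, 107756 and 88719 FPKM in replicates 1, 2 and 3. It took 13.1%, 14.3% and 12.7% of the FPKM total. Its relative Rpph1, the RNA of RNase P, which trims tRNA precursors, was far lower at 2959 ± 336 FPKM (SD, n = 3), and Terc, the template RNA of telomerase, was at 49.1 FPKM. Both Rmrp and Rpph1 are short, and FPKM of transcripts near the fragment length is less sure than that of long ones. The 10 highest genes together held 21.6 ± 1.03% of the total (SD, n = 3) and the 100 highest held 45.1 ± 1.47%.

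Next came the protein synthesis machinery. Rpl38, a protein of the large ribosomal subunit, was at 10758.9, 9831 and 8817 FPKM, and Rps26, of the small subunit, was at 9627 ± 735 FPKM (SD, n = 3). All 79 cytosolic ribosomal protein genes of the list were expressed, with a median of 1488 FPKM, and 15 of the 20 highest genes of any class belonged to it. Together they made up 26.6 ± 1.17% of the FPKM of protein-coding genes. Neighbours in this order were rarely apart: the ranges of 15 of 19 neighbouring pairs among the 20 highest protein-coding genes overlapped. Low values in this family need care. Rps27 was listed at 10.8 FPKM while its near copy Rps27rt was at 5756 FPKM, and Rpl34 was at 229 FPKM while Rpl34-ps1 was at 2782 FPKM, so reads of such pairs may have been divided between them and neither level is firm. The pseudogene Gm12191, at 3955 FPKM, has the same limit.

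The highest protein-coding genes outside the ribosomal and histone families were Eef1a1 at 5419 ± 419 FPKM, which delivers tRNAs to the ribosome, and Ppia at 4646 ± 35.3 FPKM, a prolyl isomerase. They were followed by the respiratory chain gene Cox7c at 2348 FPKM, the chromatin proteins Ptma at 2329 FPKM and Npm1 at 2036 FPKM, the chaperone Hsp90ab1 at 2005 FPKM, and Actb at 1952 FPKM. Gapdh was at 1858 ± 159 FPKM. Of these Ppia was the steadiest, with a coefficient of variation (CV, the SD as a share of the mean) of 0.760%, against 8.56% for Gapdh. High genes were also short: the median coding transcript had 855 bases among genes at 1000 FPKM or more and 3150 bases among genes from 10 to under 100 FPKM.

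Promoters of the ribosomal protein genes were searched for a feature that the ranking did not use. Their transcripts are known to begin with a C followed by pyrimidines, the element through which translation of these mRNAs is controlled. In RefSeq promoters of GRCm38.p6 (250 bases before and 50 after the annotated start), a C followed by at least 4 pyrimidines on the gene's strand was sought beginning at the last base before the start or within the following 2 bases. It was found in 19 of 68 promoters of 58 ribosomal protein genes (27.9%), against 6.35% of all 19979 promoters of protein-coding genes. The 4 highest ribosomal protein genes that hold it are shown over 30 bases, 15 before the start and 15 after, with the pyrimidine run in capitals. They lie at chr11:114668565-114668594 (plus strand), chr2:39005117-39005146 (minus), chr2:180257364-180257393 (plus) and chr17:33955651-33955680 (minus).
Rpl38: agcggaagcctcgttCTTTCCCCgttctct
Rpl35: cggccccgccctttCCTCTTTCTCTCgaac
Rps21: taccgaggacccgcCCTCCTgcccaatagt
Rps18: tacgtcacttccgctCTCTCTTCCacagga
A promoter whose annotated start is off by a few bases would be missed by this search, so the share counts annotated starts only.

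The identity of the cells was examined next. Of 19 neuroblastoma core regulators 15 were expressed (78.9%), beside 52.1% of all protein-coding genes. The median was 7.76 FPKM over the whole list. It was 13.2 FPKM over the 15 expressed members, beside 14.9 FPKM for all expressed protein-coding genes. Hand2 was the highest, at 117, 117 and 134 FPKM in replicates 1, 2 and 3. Phox2a was at 28.5, 30.4 and 38.5 FPKM, with replicate 3 the highest for both genes. These factors, which direct sympathetic neuron fate, ranked 688 and 2852 among all genes, and Hand2 was above Phox2a in every library. In the NCBIM37 assembly, the sequence of mm9, Hand2 spans bases 59799780 to 59803314 of chromosome 8. Phox2a overlaps Inppl1 on the other strand in that annotation, so its level may include reads of Inppl1.

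The Gata factors differed from each other. Gata2 was at 57.7, 48.6 and 66.0 FPKM, while Gata3, which is needed in sympathetic neurons too, was at 2.56, 1.87 and 2.38 FPKM. Lmo1, a LIM-only cofactor, was at 44.1 ± 1.58 FPKM and Klf7 at 20.4 FPKM. Sox11 (15.3 FPKM), the let-7 inhibitor Lin28b (13.2 FPKM) and Tbx2 (10.4 FPKM) were lower, and Insm1 (6.88 FPKM), Isl1 (5.79 FPKM) and Meis2 (4.62 FPKM) lower again. Mycn, the gene that is amplified in aggressive human neuroblastoma, was at only 3.78, 3.38 and 4.15 FPKM, and Alk, the receptor kinase mutated in familial neuroblastoma, at 7.76 ± 0.678 FPKM. Myc, the relative of Mycn, was at 123, 120 and 128 FPKM, above Mycn in every library. Members below 1 FPKM included Tbx3 at 0.116 FPKM, and Hand1 and Tfap2b below 0.1 FPKM.

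Genes of catecholamine handling were unevenly represented. Of 15 genes 8 were expressed (53.3%), close to the 52.1% of all protein-coding genes, so the count does not set the list apart. Storage came first. The granins, which form the core of secretory granules, were high: Chgb at 114, 129 and 116 FPKM, Scg2 at 108 ± 8.96 FPKM and Chga at 87.3 ± 6.12 FPKM. Gch1, which makes the cofactor of tyrosine hydroxylase, was at 63.1 ± 1.89 FPKM. The vesicular carrier Slc18a2 was at 5.93 FPKM, and the enzymes Dbh and Ddc were at 4.53 and 3.55 FPKM.

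The first enzyme of the pathway was nearly missing. Th, tyrosine hydroxylase, was at 0.223, 0.172 and 0.143 FPKM, below 1 FPKM in every library, while Ddc and Dbh, the next enzymes, were above 1 FPKM in every library. Slc18a1 was at 0.714, 0.370 and 0.514 FPKM. Pnmt, which makes adrenaline, and the noradrenaline transporter Slc6a2 were listed at 0 in all libraries, and Maoa, Maob and the dopamine transporter Slc6a3 were listed at 0 in at least 1 library and below 0.05 FPKM in the others. Of what defines the labelled cell type, 15 of 19 core regulators and 8 of 15 catecholamine genes were expressed. The enzyme Th and the transporter Slc6a2 were below 1 FPKM.

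**Figure D2:**
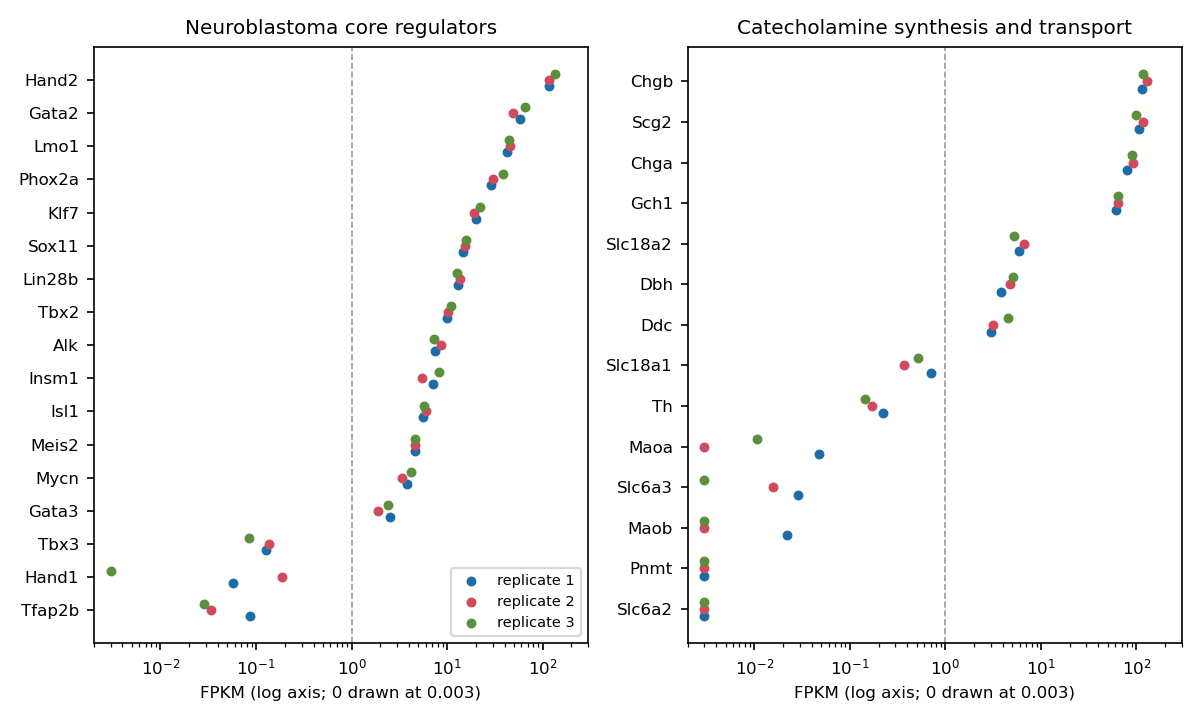
FPKM of each scramble library (horizontal, log axis, with 0 drawn at 0.003) for neuroblastoma core regulators and catecholamine genes, not all of which are drawn, ordered by mean, with the replicates in 3 colours and a dashed line at 1 FPKM. The replicates sit close together above 1 FPKM, from Hand2 to Gata3 and from Chgb to Ddc, and scatter below it.

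Other transmitter systems were represented in part. In the cholinergic list 5 of 15 genes were expressed (33.3%), beside 52.1% of all protein-coding genes. Chrna3, the receptor subunit of autonomic ganglia, led at 32.2 ± 2.40 FPKM, and Ache, which breaks down acetylcholine, was at 3.91 FPKM. The gene that makes acetylcholine, Chat, was at 0.0913, 0 and 0.0330 FPKM and its vesicular carrier Slc18a3 was listed at 0. Both tryptophan hydroxylases, the first enzymes of serotonin synthesis, were expressed, Tph2 at 6.48 FPKM and Tph1 at 4.06 FPKM, whereas the serotonin transporter Slc6a4 was at 0.0548 FPKM. The vesicular glutamate and GABA carriers were all below 1 FPKM. No list held a complete set of synthesis, storage and uptake genes.

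Neuronal structural genes were widely expressed, 26 of 30 (86.7%), beside 52.1% of all protein-coding genes. The median of the 30 was 36.8 FPKM. Prph, peripherin, the intermediate filament of peripheral neurons, was the highest at 648, 714 and 673 FPKM. Uchl1, a neuronal deubiquitinase, followed at 433 ± 5.25 FPKM, then the microtubule protein Map1b at 351 FPKM, Dpysl3 at 198 FPKM and Stmn3 at 111 FPKM. The neuronal tubulin Tubb3 was at 95.8 FPKM, the growth cone protein Gap43 at 81.5 FPKM and the synaptic vesicle protein Syp at 64.1 FPKM. The filament set was split: Nefh at 47.3 FPKM and Ina at 33.6 FPKM stood beside Nefm at 0.0673 FPKM and Nefl at 0.00816 FPKM. Rbfox3, the antigen NeuN of mature neurons, was at 0.0537 FPKM, and Dcx, a marker of migrating young neurons, at 0.00505 FPKM.

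Progenitor and crest genes were fewer. Vim, vimentin, was high at 490 ± 11.0 FPKM, and the RNA-binding proteins Msi2 (34.3 FPKM) and Msi1 (17.7 FPKM) were expressed, with Nes, nestin, at 7.39 FPKM. The neural stem cell factors Sox1, Sox2 and Sox3 and the radial glial gene Fabp7 were listed at 0. In the list of neural crest and Schwann genes 4 of 17 were expressed (23.5%), beside 52.1% of all protein-coding genes. They were Ngfr at 41.3, 37.2 and 50.5 FPKM, Sox9 at 10.6 FPKM, Pax3 at 5.28 FPKM and Erbb3 at 2.54 FPKM. Sox10, which marks crest and glia, was at 0.202 FPKM. Of the mesenchymal neuroblastoma genes 5 of 14 were expressed (35.7%), beside the same 52.1%. Vim was highest and Fn1, the matrix protein fibronectin, was next at 83.0 FPKM. Wwtr1 was at 21.8 FPKM and its paralog Yap1 at 0.00862 FPKM, and the mesenchymal factor Prrx1 was at 0.00400 FPKM.

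Markers of other cell types were mostly below the limit for expression. Of 64 genes in 8 lists (astrocyte, oligodendrocyte, leukocyte, endothelial, fibroblast, epithelial, muscle and erythroid), 8 were expressed and 44 were below 0.1 FPKM, with a median of 0.0126 FPKM. The expressed share was 12.5%, beside 52.1% of all protein-coding genes. The 8 were Tnnt2 at 31.2 FPKM, Acta2 at 9.72 FPKM, Cnp at 5.26 FPKM, Pecam1 at 4.13 FPKM, Pdgfrb at 3.04 FPKM, Acta1 at 2.82 FPKM, Mbp at 2.12 FPKM and Cd68 at 1.18 FPKM. Cd68, at 1.83, 0.670 and 1.04 FPKM, owed this to replicate 1, and without that library no gene of the leukocyte list reached 1 FPKM. Several of these are themselves markers of their cell type. Other markers in these lists, Myod1 and Ckm for muscle, Kdr for endothelium, Col1a2 and Col3a1 for fibroblasts, Mag for oligodendrocytes, Ptprc and Aif1 for leukocytes, and Epcam and Cdh1 for epithelium, were all listed at 0, with the limit on exact zeros given above. Among pluripotency genes Lin28a was at 31.8 FPKM and Klf4 at 6.17 FPKM, with Nanog at 0.243 FPKM and Pou5f1 listed at 0 in 2 libraries. Xist, the RNA that coats an inactive X chromosome, was at 88.3, 99.9 and 85.9 FPKM, and the Y-linked genes Ddx3y, Uty, Kdm5d and Eif2s3y were listed at 0 in every library. Xist overlaps Tsix on the other strand, which was listed at 0.0986 FPKM.

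**Figure D3:**
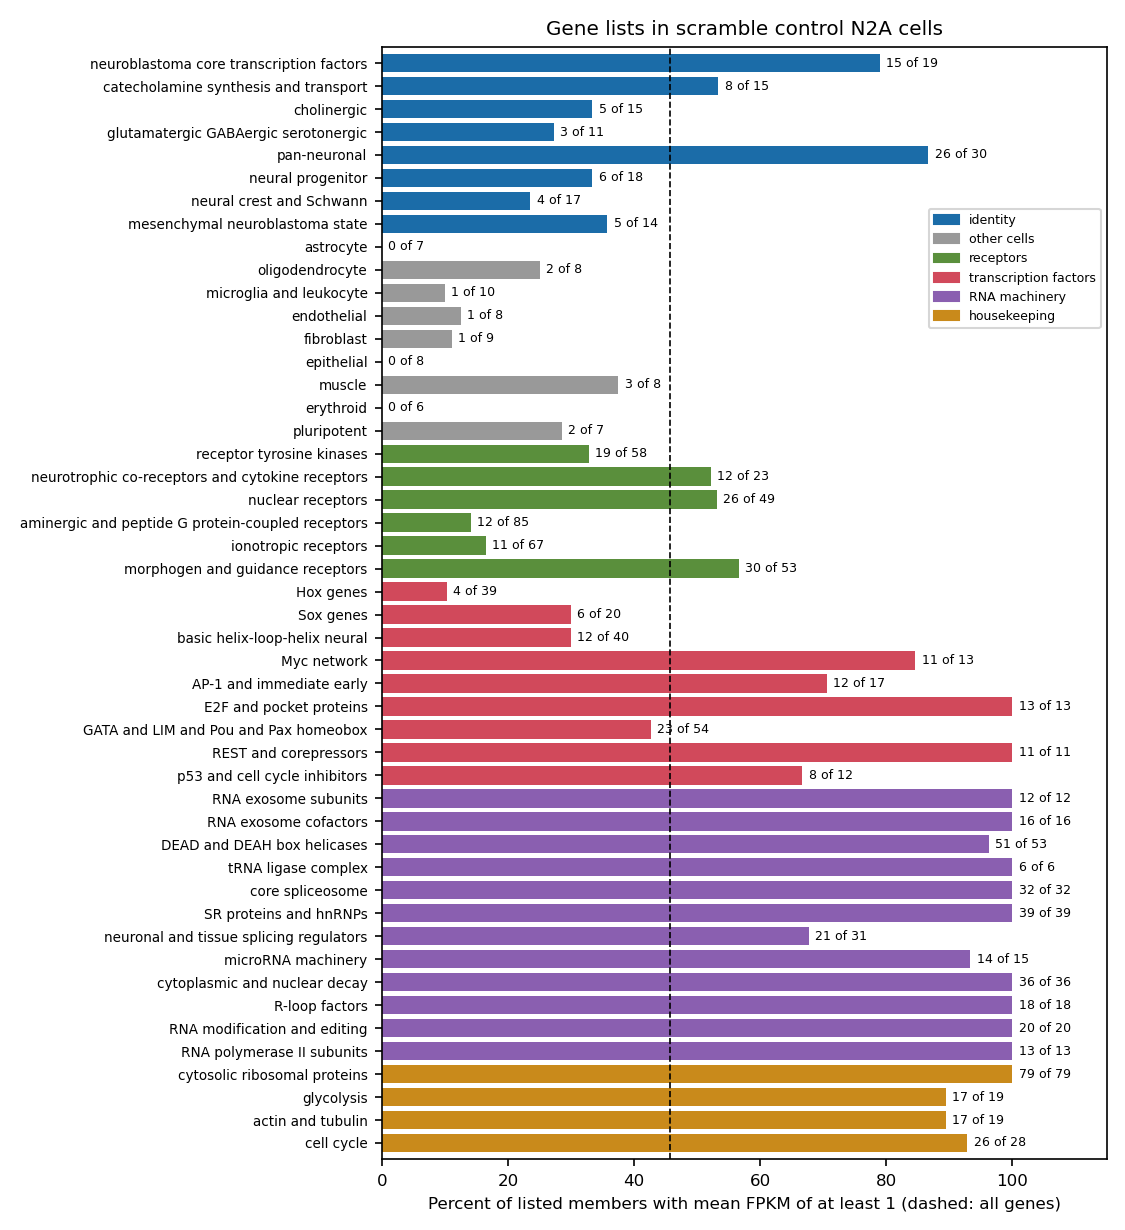
Percent of the listed members of each gene list with a mean of at least 1 FPKM in the scramble libraries, with counts at the end of each bar and colours for the kind of list. The dashed line is the share over all genes, 45.7%; RNA machinery reaches 100% in 9 of 12 lists while Hox genes (4 of 39) and G protein-coupled receptors (12 of 85) lie well under the line, and the lists of other cells lie under it by more or less, muscle (3 of 8) being the nearest.

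Receptors were a selective set. Of 335 receptor genes 110 were expressed (32.8%) and the median was 0.0422 FPKM, beside 52.1% of all protein-coding genes. The share ran from 12 of 85 aminergic and peptide receptors and 11 of 67 ionotropic receptors to 26 of 49 nuclear receptors and 30 of 53 morphogen and guidance receptors. Nrp2, the semaphorin and VEGF co-receptor, was the highest of all, at 73.5, 78.7 and 69.0 FPKM.

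Ret, the receptor kinase of the GDNF family, followed at 62.3, 63.1 and 67.6 FPKM, and led the 19 expressed receptor tyrosine kinases of 58. It lies on chromosome 6 of NCBIM37 from 118101766 to 118147762. Ret needs a Gfra co-receptor to bind its ligands. Gfra1 was at 1.89, 1.48 and 1.65 FPKM, Gfra2 at 0.261 FPKM and Gfra4 at 0.0443, 0 and 0 FPKM, and Gfra3 was listed at 0. Ret was thus above each co-receptor in every library. The ligand genes Gdnf (0.241 FPKM) and Artn (0.189 FPKM) were below 1 FPKM, and Nrtn was listed at 0.

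Among the other kinases, the collagen receptors Ddr2 and Ddr1 were at 48.7 ± 0.623 and 16.9 FPKM, the Wnt receptor Ryk at 28.6 FPKM and Lmtk2 at 19.6 FPKM. Fgfr1 was at 13.8 FPKM, Insr at 12.7 FPKM and Igf1r at 10.6 FPKM. The neurotrophin receptors were unequal, with Ntrk3 at 10.3, 9.58 and 11.6 FPKM and Ntrk2 listed at 0, beside Ngfr at 43.0 FPKM and Sort1 at 21.2 FPKM. Kit, Met, Erbb4 and all Epha and Ephb receptors except Ephb3 (1.40 FPKM) were below 1 FPKM.

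Chains of the cytokine receptors were at unequal levels too. The shared signalling chain Il6st was at 21.9 ± 0.261 FPKM and the CNTF-binding subunit Cntfr at 19.8 ± 1.61 FPKM, whereas Lifr, the third chain of that receptor, was listed at 0 and Il6ra was at 0.259 FPKM. Il6 itself was at 18.1 FPKM and Cntf at 2.82 FPKM. Both chains of the interferon gamma receptor, Ifngr2 (24.3 FPKM) and Ifngr1 (5.76 FPKM), and of the type I interferon receptor, Ifnar2 (17.0 FPKM) and Ifnar1 (9.27 FPKM), were expressed. Tnfrsf1a was at 25.6 FPKM.

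In the morphogen families Tgfbr1 was at 36.3 ± 1.40 FPKM, while Tgfbr2, which binds TGF-beta before Tgfbr1 is recruited, was at 0, 0.0112 and 0.0280 FPKM. Ptch1, the receptor of hedgehog proteins, was at 13.9 FPKM, while Smo, the transducer it restrains, was at 0.0419 FPKM. The BMP receptors were paired, with Bmpr2 at 30.3 ± 0.742 FPKM and Bmpr1a at 29.3 ± 0.771 FPKM. The ranges of these last 2 genes overlapped. For axon guidance, the netrin receptors Neo1 (46.5 FPKM), Unc5b (28.9 FPKM) and Unc5c (28.8 FPKM) stood beside Dcc, listed at 0, and Robo1 was listed at 0. Slit3, a ligand of the Robo receptors, was at 22.3 FPKM.

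Ligand-gated channels were led by Htr3a, the serotonin-gated cation channel, at 57.1, 59.2 and 63.5 FPKM. Its usual partner Htr3b was at 0.631, 0.307 and 0.491 FPKM, below Htr3a in every library. Htr3a lies on chromosome 9 of NCBIM37 from 48707319 to 48719204. The nicotinic subunits Chrna3 (32.2 FPKM), Chrnb2 (8.49 FPKM), Chrnb1 (4.71 FPKM) and Chrna7 (4.25 FPKM) were expressed and Chrnb4, the main ganglionic beta subunit, was at 0.215 FPKM. No GABA receptor alpha or gamma subunit was above 0.1 FPKM. Of glutamate receptor genes only Grik5, a kainate receptor subunit, was expressed, at 9.33 FPKM. The ATP-gated P2rx3, P2rx4 and P2rx7 were at 7.48, 6.80 and 6.75 FPKM.

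G protein-coupled receptors had the lowest share. The cannabinoid receptor Cnr1 was at 26.0, 23.6 and 28.5 FPKM and the PACAP receptor Adcyap1r1 at 20.6 ± 0.828 FPKM. They were followed by the adenosine receptor Adora2a at 6.72 FPKM, the bradykinin receptor Bdkrb2 at 4.19 FPKM and Gabbr1 at 3.93 FPKM, whose obligate partner Gabbr2 was at 0.0234 FPKM. All dopamine, adrenergic and muscarinic receptors of the lists except Chrm4 (5.23 FPKM) were below 1 FPKM, and 37 of the 85 genes were listed at 0. Nuclear receptors were led by the clock repressor Nr1d2 at 24.7 ± 0.468 FPKM, then Pparg at 17.0 FPKM, the retinoic acid receptor Rara at 16.1 FPKM, the glucocorticoid receptor Nr3c1 at 15.6 FPKM and Rxrb at 14.7 FPKM. The progesterone receptor Pgr was listed at 0, and the oestrogen receptor Esr1 was at 1.08 FPKM.

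The cells' own secreted factors were examined as well. Of 70 ligand and neuropeptide genes, a list added after the values had been seen, 18 were expressed (25.7%), beside 52.1% of all protein-coding genes. The secretory granule precursor Vgf was at 125, 131 and 135 FPKM, Vegfa, which neuropilins bind, at 111 ± 7.70 FPKM, and Ptn, the growth factor pleiotrophin, at 39.9 FPKM. Most neuropeptide genes, among them Gal, Sst, Penk and Tac1, were listed at 0, and Npy was listed at 0 in 2 libraries. The peptide genes Cartpt (6.10 FPKM) and Nppb (4.17 FPKM) were expressed.

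Transcription factors ranged from complete families to families listed at 0. Of 227 genes in the regulator lists 106 were expressed (46.7%), beside the same 52.1% of protein-coding genes. The E2F and pocket proteins, which time entry into S phase, were expressed in full (13 of 13, led by Tfdp1 at 97.99 FPKM), as were REST and its corepressors (11 of 11), with Rest itself, the repressor of neuronal genes outside neurons, at 11.6, 12.9 and 10.8 FPKM. Of the helix-loop-helix genes Hand2, the inhibitors Id1 (82.5 FPKM) and Id3 (34.9 FPKM), and the E proteins Tcf4 (42.4 FPKM) and Tcf12 (28.5 FPKM) were the highest. The proneural genes Neurog1, Neurog3 and Neurod2 were listed at 0. Sox4, at 45.5, 54.6 and 52.8 FPKM, led the 6 expressed Sox genes of 20.

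The Hox genes, which record position along the body axis, were expressed from part of a single cluster, as far as values of 0 can be read. Of 39 genes 4 were expressed (10.3%, beside 52.1% of all protein-coding genes), all in the HoxC cluster on chromosome 15. Hoxc10 was at 25.7, 25.4 and 24.4 FPKM, Hoxc6 at 15.7, 15.1 and 16.3 FPKM, Hoxc9 at 13.3, 16.2 and 15.4 FPKM and Hoxc8 at 3.11, 2.79 and 2.79 FPKM. Hoxc5 and Hoxc4 were just under the limit at 0.956 and 0.863 FPKM. The 33 others, every HoxA, HoxB and HoxD gene together with Hoxc11, Hoxc12 and Hoxc13, were listed at 0 in all 3 libraries. On NCBIM37 the genes above 0 form an unbroken stretch from the start of Hoxc10 at 102797227 to the end of Hoxc4 at 102867274, and the 3 genes before it, from Hoxc13 at 102751534 to the end of Hoxc11 at 102788139, were the ones listed at 0. The gene model Gm20398 overlaps Hoxc5, Hoxc6, Hoxc8, Hoxc9 and Hoxc10 on the same strand, so reads of those genes may have been divided.

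Proliferation and its brakes were present side by side. Of 28 cell cycle genes 26 were expressed (92.9%), beside 52.1% of all protein-coding genes. Top2a was at 284 FPKM, Cdk4 at 253 FPKM, Pcna at 179 FPKM and Mki67 at 97.0, 114 and 95.5 FPKM. D-type cyclins were unequal: Ccnd1 was at 54.4 FPKM, Ccnd3 at 13.2 FPKM and Ccnd2 at 0.00277 FPKM, and Cdk6 was listed at 0. Trp53, which encodes p53, was at 97.8 ± 3.799 FPKM, its inhibitor Mdm2 at 53.1 FPKM, its target Cdkn1a at 43.5 FPKM, and the tumour suppressor locus Cdkn2a at 31.8, 34.1 and 33.7 FPKM. Cdkn1b was at 67.4 FPKM. Of the 12 genes in the list of p53 and cell cycle inhibitors 8 were expressed (66.7%), and 2 were below 0.1 FPKM.

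RNA machinery was expressed nearly in full. Of 287 genes 274 were expressed (95.5%), beside 52.1% of all protein-coding genes, with a median of 34.5 FPKM. The RNA exosome, the complex of ring, cap and nuclease subunits that trims and degrades RNA from the 3′ end, was expressed in all 12 subunits, from Exosc2 at 82.6 FPKM to Dis3l at 11.4 FPKM. Exosc3, a cap subunit and the target of an siRNA in the study, was at 45.8, 43.8 and 42.7 FPKM. The nuclease Exosc10 was at 47.5 ± 2.09 FPKM and the nuclease Dis3 at 35.4 FPKM. The median CV of the 12 subunits was 3.60%, against 4.84% for all genes at 10 FPKM or more, the level at which all 12 lie; the difference was not tested.

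All 16 genes of the exosome cofactor list were expressed. The list holds 1 gene in error: Mpp6 (89.2 FPKM), in mouse the symbol of a membrane scaffold gene, shares only its name with the cofactor protein that Mphosph6 encodes, and stays in the counts. Of the cofactors the helicase Skiv2l2 (88.9 FPKM), Mphosph6 (77.9 FPKM) and the poly(A)-binding protein Pabpn1 (73.2 FPKM) were highest, and the cytoplasmic helicase Skiv2l lower at 6.32 FPKM. Of 53 DEAD and DEAH box helicases 51 were expressed. Ddx5 led at 516 FPKM, then Eif4a1 at 384 FPKM, Ddx3x at 219 FPKM, Eif4a3 at 194 FPKM and Ddx39b at 180 FPKM. Ddx1 was at 131, 127 and 121 FPKM, above Exosc3 in every library. The tRNA ligase complex to which Ddx1 belongs was expressed in full, with its catalytic subunit Rtcb at 105 FPKM and Fam98b at 33.2 FPKM. The germline helicases Ddx4 (0.0742, 0 and 0 FPKM) and Ddx43 (listed at 0) were the only list members below 1 FPKM.

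Splicing and decay factors gave a similar picture. All 32 core spliceosome genes and all 39 SR and hnRNP genes were expressed, the latter at a median of 128 FPKM, with Hnrnpa1 at 834 FPKM, Hnrnpab at 489 FPKM and Hnrnpu at 483 FPKM. So were all 36 decay genes, all 18 R-loop genes, among them the helicase Dhx9 at 95.7 FPKM, and all 20 modification genes. Tissue-restricted splicing regulators were the exception, at 21 of 31. Ptbp1, which holds back neuronal exons, was at 165, 158 and 166 FPKM, above its neuronal paralog Ptbp2 at 28.6, 27.2 and 28.7 FPKM. Nova2 (9.50 FPKM), Srrm4 (8.18 FPKM) and Celf3 (15.5 FPKM), all neuronal, were expressed, Rbfox2 was at 40.6 FPKM, and Rbfox1 and Rbfox3 were below 1 FPKM.

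The microRNA pathway was expressed in 14 of 15 genes, with Drosha at 60.2 FPKM, Xpo5 at 55.03 FPKM, Ago2 at 47.0 FPKM and Dicer1 at 15.0 FPKM, and Ago4 at 0.0304 FPKM. The microRNAs themselves were not measured, but a host transcript was. Mir17hg, the primary transcript of the miR-17 to miR-92a cluster, which the Myc family is known to induce, was at 11.1, 10.7 and 11.4 FPKM. The guide arms that RefSeq lists for it on chromosome 14 of GRCm38.p6, between 115043684 and 115044496 on the plus strand, are shown with the seed (bases 2 to 8) in capitals, since the seed decides which mRNAs a microRNA can pair with.
miR-17-5p: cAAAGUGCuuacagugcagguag
miR-20a-5p: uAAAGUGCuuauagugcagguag
miR-18a-5p: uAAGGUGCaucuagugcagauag
miR-19a-3p: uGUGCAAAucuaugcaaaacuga
miR-19b-3p: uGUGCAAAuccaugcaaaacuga
miR-92a-3p: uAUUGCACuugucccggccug
The first pair share a seed, miR-19a and miR-19b share another, and miR-18a and miR-92a each have their own, so these 6 arms hold 4 seeds. Opposite arms in RefSeq, with other seeds, are not shown. The let-7 inhibitors Lin28a and Lin28b, counted above, act on other microRNAs.

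The highest long noncoding RNAs were 2410006H16Rik, Snhg1, a host of small nucleolar RNAs, and Malat1. 2410006H16Rik was at 1717, 2117 and 1361 FPKM, Snhg1 at 956, 939 and 769 FPKM, and Malat1, a nuclear speckle RNA, at 702, 848 and 662 FPKM. Neat1, the scaffold of paraspeckles, was at 37.7 FPKM, and Meg3, H19 and Miat were below 1 FPKM. These RNAs varied more than most: the CV of 2410006H16Rik was 21.9% and the median CV of the 17 expressed list members 9.43%.

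The replicates were then compared with each other. Over all 24318 genes the Pearson correlation of log2(FPKM + 1) lay between 0.9979 and 0.9984 for the 3 pairs, and between 0.9946 and 0.9965 over the 11106 expressed genes; genes are not independent replicates, and the correlations are descriptions. The median CV was 5.99% over expressed genes. It fell from 11.2% at 1 to under 5 FPKM to 4.98% at 10 to under 50 FPKM and 4.36% at 50 to under 100 FPKM, and was 7.41% at 1000 FPKM or more. Genes from 0.1 to under 1 FPKM had a median CV of 31.2%, so single values under 1 FPKM carry little precision. The absolute depth is unknown in FPKM. From the value of a single fragment in low genes, replicates 2 and 3 had 0.922 and 1.11 times the depth of replicate 1.

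**Figure D4:**
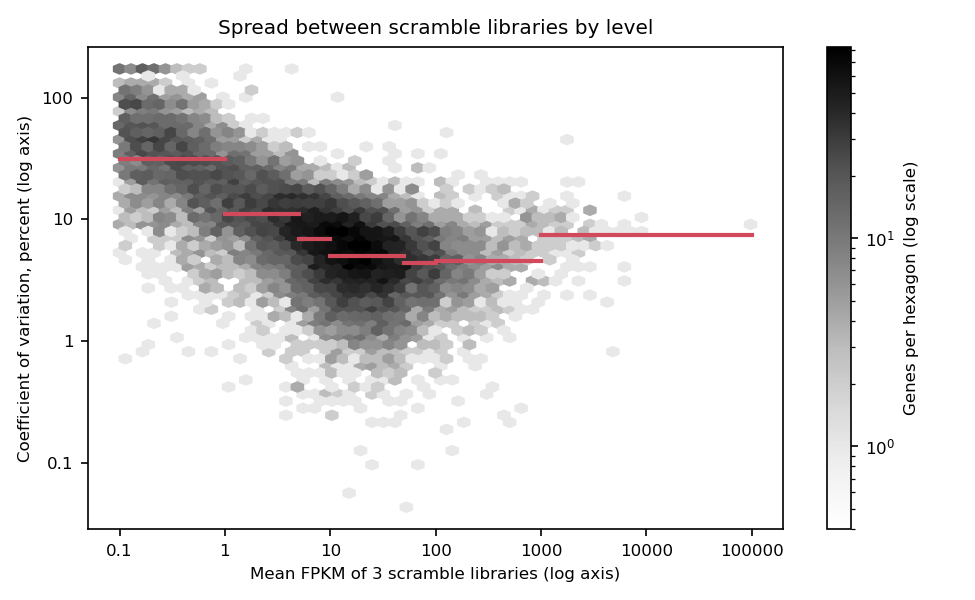
Coefficient of variation of the 3 scramble libraries in percent (vertical, log axis) against mean FPKM (horizontal, log axis), with darker hexagons holding more genes and red lines for the median of each level band. The red lines fall from 31.2% under 1 FPKM to 4.36% at 50 to under 100 FPKM and stand at 7.41% from 1000 FPKM.

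Of the 6808 genes at 10 FPKM or more, 3546 (52.1%) differed by less than 1.1 times between their highest and lowest library, 42 (0.617%) by at least 1.5 times and 7 by at least 2 times. Those 7 included Snora23, Scarna6, Hist1h4k, H1fx, 1110001J03Rik and Atp6v0c-ps2. The small nucleolar RNA Snora23 was at 30.4, 25.2 and 69.8 FPKM and the Cajal body RNA Scarna6 at 182, 117 and 62.5 FPKM. The 10 largest CVs also included the snoRNA Snora74a (35.1%), Adm (36.3%), which encodes the peptide adrenomedullin, and Ankrd37 (34.2%).

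At the other end Itpa, which clears inosine triphosphate, was at 59.8 FPKM in each library with a CV of 0.0429%. Traf2 (13.7 FPKM), Gm14325 (23.3 FPKM), Erbb2ip (69.0 FPKM), Agk (19.9 FPKM), Akr1a1 (143 FPKM), Hs2st1 (22.6 FPKM), Ndufb10 (175 FPKM) and Mrpl40 (45.2 FPKM) were also among the 10 smallest CVs. With 3 libraries and 6808 genes some CVs are near 0 by the count of genes alone, so the list does not name reference genes.

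Replicate 2 was the farthest from the median of the 3 for 37.9% of expressed genes, replicate 3 for 36.3% and replicate 1 for 25.8%, and 21, 11 and 27 genes at 10 FPKM or more differed by at least 1.5 times between replicates 1 and 2, 1 and 3, and 2 and 3. The deviation of a gene from its mean went with the GC content of its longest coding transcript, with Spearman correlations of -0.333, -0.0735 and 0.332 in replicates 1, 2 and 3 over 9928 genes, and hardly with length (-0.0379, 0.0580 and -0.0234). These are descriptions across genes that share libraries.

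Genes of the hypoxia response, which cells turn on when oxygen falls, varied together. The list was drawn up after Adm and Ankrd37 had been seen among the most variable genes, so its counts describe these libraries and support nothing further. Of 36 genes 33 were expressed and 31 of them were highest in replicate 2, beside 34.4% of all expressed genes. The median gene of the list was at 93.8%, 117% and 91.2% of its 3-library mean in replicates 1, 2 and 3. Ankrd37 was at 33.7, 53.9 and 28.8 FPKM. The mitophagy receptor Bnip3 was at 64.7, 96.2 and 57.9 FPKM, Fam162a at 227, 307 and 202 FPKM, and the glucose carrier Slc2a1 at 19.2, 28.9 and 20.7 FPKM. In each of these replicate 2 was above both others.

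The glycolytic enzymes among them took part. Pgk1 was at 396, 527 and 364 FPKM and Aldoa at 600, 782 and 621 FPKM. Without the genes of the glycolysis list 22 of 24 remained highest in replicate 2. The exceptions were Gys1, at 24.98, 25.8 and 27.0 FPKM, and Pfkfb4, at 1.104, 0.939 and 1.36 FPKM. The median GC content was 51.0% for the list and 50.3% for all expressed protein-coding genes. Measured against the scramble mean of its own table, the median gene of the list stood at 155%, 122% and 179% in siEXOSC3 replicates 1, 2 and 3, and at 143%, 170% and 114% in the siDDX1 replicates of the other table. Scramble replicate 2, at 117%, thus lay above siDDX1 replicate 3 and below the other knockdown libraries, and its part in a comparison with a knockdown was not tested.

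Promoters of the list were searched for ACGTG on both strands, the core of the element bound by hypoxia-inducible factors. It was found in 23 of 40 promoters of 28 expressed list genes (57.5%), against 25.9% of the promoters of all expressed protein-coding genes and 21.4% of all 19979. It overlaps CACGTG, the E-box, which was found in 7.5% of the promoters of the expressed list genes and 8.15% of all. The 6 genes at 10 FPKM or more with the largest excess in replicate 2 and the letters before their start are shown over 30 bases of GRCm38.p6, with the match on either strand in capitals. They lie at chr8:45999851-45999880 (minus strand), chr7:138909597-138909626 (minus), chr4:119108697-119108726 (plus), chr16:36071625-36071654 (minus), chrX:106186957-106186986 (plus) and chr7:126799363-126799392 (minus).
Ankrd37: ggctgcacatgtcagtgtttgggtACGTGa
Bnip3: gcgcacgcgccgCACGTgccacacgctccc
Slc2a1: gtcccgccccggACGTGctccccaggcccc
Fam162a: ccgctcgtcgcgCACGTcccgcacgcccgc
Pgk1: aaatggaagtagCACGTctcactagtctcg
Aldoa: tgtggctcgagtCACGTcctagcggggcgg
The list was made of known hypoxia genes, so a higher share of this element was likely beforehand and says nothing about replicate 2. The 6 genes shown were picked by their excess in that library. A match is a run of letters and not a measured site, and binding was not measured here.

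Ribosomal protein and histone genes also differed between libraries. Of the 79 ribosomal protein genes 62 were highest in replicate 2, beside 34.4% of all expressed genes, and their medians were 101%, 107% and 92.1% of the 3-library mean. Replication-dependent histone genes went the other way: 46 of 56 expressed genes were highest in replicate 3, beside 33.4% of all expressed genes, with medians of 99.1%, 89.5% and 110%. Hist2h2bb was at 2707, 2502 and 2999.7 FPKM, and Hist2h4 at 2213, 1849.9 and 2467 FPKM. The histone transcripts have a median GC content of 59.4%, and replicate 3 is the library in which GC-rich genes were relatively high, whose part in the histone values was not tested. Histone genes are near copies of each other, so levels of single members are uncertain.

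**Figure D5:**
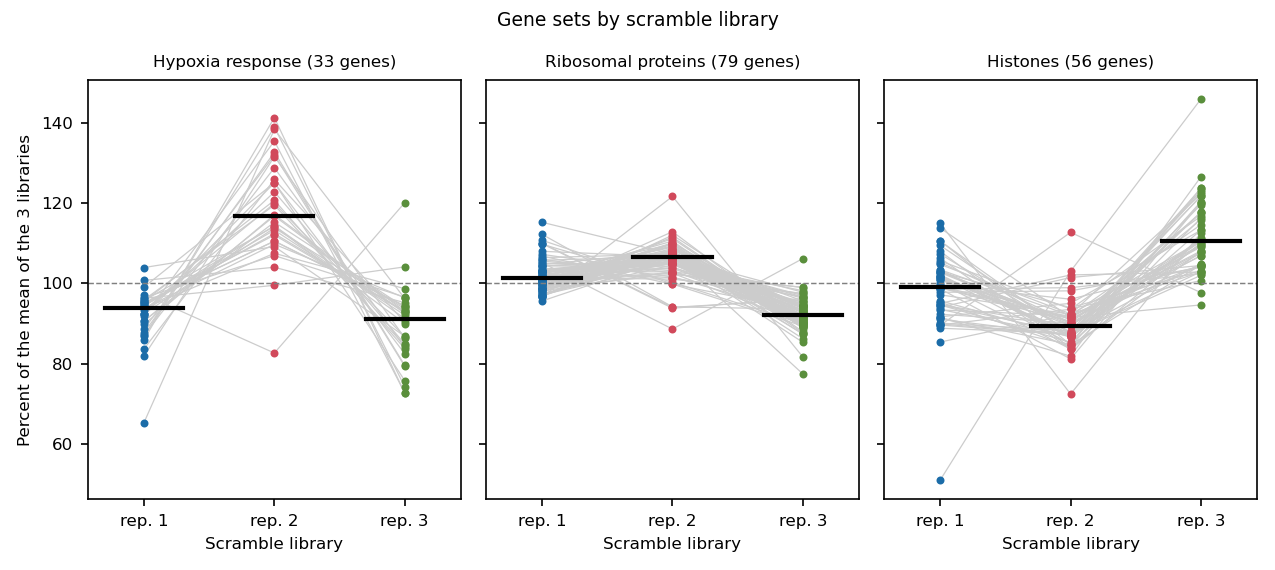
Level of each expressed gene in each scramble library as percent of its mean over the 3 libraries, for 33 hypoxia response genes, 79 ribosomal protein genes and 56 replication-dependent histone genes. Grey lines join the values of a gene and black bars are medians, which reach 117% for hypoxia genes in replicate 2 and 110% for histones in replicate 3.

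Beside the knockdown groups the scramble group was the least spread in each table. Its median CV of 5.99% stood beside 9.49% for the siEXOSC3 libraries, and beside 8.98% for the siDDX1 libraries of the other table, where the scramble value was 5.996%. At 10 FPKM or more, 42 genes differed by at least 1.5 times within scramble and 405 within siEXOSC3. The difference between the groups was not tested.

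Promoters of the expressed genes differed in composition from those of the rest. A ratio of observed to expected CpG of at least 0.6, the usual mark of a CpG island promoter, was found in 72.7% of 11077 promoters of expressed protein-coding genes, 29.7% of promoters of genes above 0 and under 1 FPKM and 14.7% of promoters of genes listed at 0. The Sp1 element GGGCGG, on both strands, was found in 64.4%, 39.4% and 19.2%, and the Ets-like CCGGAAG in 18.8%, 4.88% and 2.34%. CCAAT, also on both strands, was found in 38.4%, 35.7% and 39.9%, beside 85.2% of 61 histone promoters and 62.5% of 24 Hox promoters. All of these 24 belong to Hox genes that were not expressed here. TATAAA between 45 and 16 bases before the start was found in 1.09%, 2.73% and 6.16%, but in 2.95% of promoters of genes at 100 FPKM or more and in 24.6% of the 61 histone promoters, so its share did not fall steadily with level. Of 68 histone genes 47 were themselves at 100 FPKM or more, so these 2 shares are not separate. The part of histones in the 2.95% was not tested. Of 23 promoters of expressed neuronal genes 2 held TATAAA (8.70%), those of Prph and Elavl3, and none of 14 promoters of expressed core factor genes did, differences that were not tested. The 2 are shown over 30 bases with the box in capitals, at chr15:99055131-99055160 (plus strand) and chr9:22052039-22052068 (minus) of GRCm38.p6.
Prph: agaccgcagggcTATAAAgccgccccgcat
Elavl3: ggcagctgcctcTATAAAgggctgggggcg
Prph was also the highest of the neuronal genes, while Elavl3, at 22.6 FPKM, lay below their median of 36.8 FPKM. The 23 promoters cover 17 of the 26 expressed neuronal genes. A CpG ratio of at least 0.6 was found in 13 of 14 promoters of 12 expressed core factor genes and in 14 of 23 promoters (60.9%) of expressed neuronal genes.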

How the data were processed

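RNA-seq of N2A cells with 3 scramble, 3 siEXOSC3 and 3 siDDX1 libraries was analysed from FPKM values deposited by the authors in 2 tables, each holding a knockdown and the same scramble libraries. Per the submitters' processing notes the tools were TopHat2 2.1.0, SAMtools and Cuffdiff 2.2.1 with mm9, and the gene annotation given to Cuffdiff is not given in the sources used here. The scramble columns of the 2 tables differ by a near-constant factor (1.01 in each replicate), and those of the siEXOSC3 table were used. FPKM are not counts and the group has no contrast, so no test was run and no interval from counts is given.

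Means, SDs and CVs (SD over mean) were computed in Python 3.11 with pandas, over all genes or genes with a mean of at least 1 FPKM. Gene classes came from RefSeq (GRCm38.p6), where 23120 symbols matched directly, 1081 through a synonym and 117 not at all. Positions, GC content and transcript length came from GENCODE vM1 on NCBIM37, the sequence of mm9, and the motif search used RefSeq promoters of 16363 of 20474 protein-coding genes. The members of the 51 gene lists and the rule for naming genes (the highest genes, all core regulators and catecholamine genes, the leading members of other lists, and the largest and smallest CVs) were chosen with earlier results of these data known. Other genes of those lists and the partners of a named receptor were named after their values had been seen. The hypoxia, ligand and histone lists and the promoter motifs were chosen after seeing the data. The spread and depth calculations were tested on simulated data. A few members of these lists are counted but not reported here by name.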

Additional observations from a re-analysis of the deposited data

How the results depend on the processing

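No paired analysis was possible because the results come from no test and from a single group. The alternatives were the scramble columns of the other table, leaving out each replicate, other limits on low FPKM, a common total per library, protein-coding genes alone, median-ratio scaling and a pseudocount of 0.1. The 11106 expressed genes became between 8687 (mean of at least 5 FPKM) and 11864 (at least 0.5 FPKM), and 11080 to 11119 without a replicate. The share of the 10 highest genes was 10.6% within protein-coding genes, which leaves out Rmrp by construction, and 21.1 to 22.1% without a replicate. The median CV was 5.20% at a mean of at least 5 FPKM, 8.87% over all genes above 0, and 4.59 to 5.58% without a replicate, where 2 libraries remain. The lowest correlation was 0.9953 with a pseudocount of 0.1 and 0.9946 over genes of at least 1 FPKM, and 0.9979 to 0.9984 without a replicate. Of the 1178 listed genes 700 were expressed, 698 to 700 without a replicate, 693 with at least 1 FPKM in every library and 613 at a mean of at least 5 FPKM. That last limit moved the count of 9 of the 51 lists by over 1.5 times, the others 0 or 1 list. Alternatives for the hypoxia genes, added after seeing the data, gave medians of 115.2 to 119.7% in replicate 2. Depth limits what can be said of genes under 1 FPKM, and values of 0 are not evidence of absence.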

Other observations

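The scramble libraries also listed genes that belong to no list above. Rhox2g, a reproductive homeobox gene of the X chromosome, was at 44.4, 26.6 and 29.3 FPKM, with replicate 1 above both others. Sncb, beta-synuclein, a presynaptic protein, was at 12.9, 20.8 and 14.9 FPKM, highest in replicate 2. The mitochondrial genes Mrpl52, of the organelle's ribosome, at 110, 64.3 and 101 FPKM, and Sdhaf3, an assembly factor of succinate dehydrogenase, at 21.4, 12.5 and 23.5 FPKM, were both lowest in replicate 2. Rpl22l1, a paralog of the ribosomal protein gene Rpl22, was at 82.2, 72.5 and 45.1 FPKM. All 5 were among the 20 largest CVs at 10 FPKM or more and were named after their values had been seen.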
